A study of Ambystoma mexicanum with 7 samples.

Results

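The miR-200 family is a group of small RNAs of epithelial cells with 5 members, miR-200a, miR-200b, miR-200c, miR-141 and miR-429, and it was followed here from intact axolotl limb tissue to the regenerating blastema. On the Exiqon arrays all 10 probes of the family read lower in the blastema than in the stump after loess and after centring on the median. Of the 10, 3 passed the test when the arrays were normalized by loess and 9 when they were centred on the median. Of all 2015 Exiqon probes tested 10.8% and 13.0% fell under these settings. None of the 24 LC Sciences reporters tested passed, against 48.2% of all 500. The means of miR-200a and miR-141 there were 0.65 to 1.05 log2 units higher in the blastema of animals 1 and 2 and within 0.03 of the stump in animal 3. Members were found by name: a probe counted when an entry of its name, after the species prefix, was exactly one of the 5 names and the species was a vertebrate. The 5 names are among the 1628 vertebrate miRNA names found on either array, and 10 of 2021 named Exiqon probes and 30 of 1974 LC Sciences reporters carried one.

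The stump samples were pieces of hindlimb from 3 white axolotls (Ambystoma mexicanum), taken at amputation (day 0) with full thickness skin, bone, muscle and nerve. The blastema samples were the mid-bud regenerates of the same 3 animals at 17 days post amputation. The labels give no treatment other than the amputation, and each animal (1, 2 and 3, by the replicate number in the labels) gave 1 sample of each. On Exiqon each of the 6 RNAs had an array to itself, labelled in Hy3 beside a reference pool (Hy5) that all arrays shared. On LC Sciences both tissues of an animal went on the same array, and the blastema carried Cy3 in animal 1 but Cy5 in the other animals. Both are bulk tissues, so fewer epithelial cells and less of a miRNA per cell cannot be told apart in any value below.

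A miRNA guides the silencing complex to messenger RNAs that pair with its seed, the bases 2 to 8 from the 5′ end. The miR-200 family is known in other vertebrates for holding cells in an epithelial state: its members repress ZEB1 and ZEB2, transcription factors that shut off E-cadherin and other epithelial genes and that repress the miRNAs in turn. In mammals miR-200b, miR-200a and miR-429 come from a common transcript, and miR-200c and miR-141 from another. In a limb the epidermis of the skin is the main epithelium, and in a blastema a wound epidermis covers the mesenchymal cells.

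The target sequences of the LC Sciences reporters are shown because the family falls into 2 seed groups, and because reporters that gave strong signal and reporters that gave almost none differed by a few bases outside the seed. They are the miRNAs that the reporters are complementary to, from 5′ to 3′, with the seed in capitals and the species given by its prefix (hsa human, dre zebrafish). The first seed group has AACACUG.
hsa-miR-200a: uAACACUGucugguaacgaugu
dre-miR-141: uAACACUGucugguaacgaugc
hsa-miR-141: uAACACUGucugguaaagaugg
The second seed group has AAUACUG.
hsa-miR-200b: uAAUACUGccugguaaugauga
dre-miR-200c: uAAUACUGccugguaaugaugc
hsa-miR-200c: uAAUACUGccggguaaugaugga
dre-miR-429: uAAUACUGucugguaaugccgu
hsa-miR-429: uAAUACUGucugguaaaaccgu
Of the 30 reporters 11 held the first seed and 18 the second. The remaining one, of gorilla miR-200c, began 1 base later and so read AUACUGC at these positions. Counted from 1 at the 5′ end, with the human base first, zebrafish miR-141 differed from human miR-141 by A17C and G22C, and from human miR-200a by U22C alone. Zebrafish miR-200c differed from human miR-200c by G11U and G22C, and from human miR-200b by A22C alone. Zebrafish miR-429 differed from human miR-429 by A17U and A18G. Probes for dre-miR-141 and miR-200a, and for dre-miR-200c and miR-200b, are therefore near-identical and their signals cannot be told apart here. The axolotl's own sequences were not used here, so the species whose probe it matches best is read from the signals only.

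The number of arrays limits the precision of every value below. The median Hy3 intensity of a named Exiqon probe was 118 to 127 and the brightest negative control read 116 to 128. On each array 950 to 1078 of the 2021 named probes were brighter than that control. The median local background was 65.7 to 70.8. Poor spots numbered 1584 and 1209 on the 2 arrays of animal 1 and 186 to 214 on the others. Of the family's 240 spots on the Exiqon arrays 229 were used. Most of those dropped were of the 3 probes called after loess below. Of 24 spots each, 21 were used for 10946, 19 for 17727 and 22 for 17427. With flagged spots kept, the difference of 10946 after loess was -0.57 (adjusted p = 0.0291).

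On the Exiqon arrays the family's probes ranged from bright to near the brightest negative control. The 5 probes for miR-200a (27777, and 11000 with dre-miR-141), dre-miR-141 (28527) and miR-200b (9578, and 18900 with dre-miR-200c) read 675 to 992 in the 3 blastemas and 1225 to 2132 in the 3 stumps in Hy3 before any correction. Every blastema was under every stump in these raw intensities, but the share of all probes for which this held was not counted. Bright probes as a class were lower in the blastema, as given below. The probe for miR-429 of mouse, zebrafish, frogs and chicken (17478) read 315, 332 and 349 in the blastemas and 625, 443 and 539 in the stumps. The probe for human and rodent miR-141 (10946) read 171, 171 and 193 against 293, 208 and 243, and that for miR-141 of the opossum and other species (17727) 122, 133 and 144 against 187, 148 and 165. The probe for mammalian miR-200c (17427) read 134, 131 and 136 in the blastemas and 182, 143 and 143 in the stumps. Those 9 probes were brighter than every negative control on 6 of 6 arrays. The primate miR-429 probe (13171) was so on 1 of 6 arrays, at 114 to 131.

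After background correction and loess, 3 of the 10 probes fell in the blastema, against 10.8% of the 2015 probes tested that fell. Of the 972 probes brighter than every negative control on all arrays of a group, 224 fell, and 3 of the family's 9. They were probes for miR-141 and miR-200c, and all 3 were dim and carried mammalian names. Probe 17727 carried names of tunicates (prefixes cin and csa) as well. For the human and rodent miR-141 probe the log2 ratio to the reference pool was -0.37, -0.54 and -0.73 in the blastemas of animals 1, 2 and 3, and -0.00, 0.00 and 0.28 in their stumps. It fell by 0.64 on the log2 scale (SE 0.13, adjusted p = 0.00776), or 1.56-fold lower in the blastema. The miR-141 probe of the opossum and other species (17727) read -0.48, -0.29 and -0.42 against 0.13, -0.02 and 0.30, and fell by 0.53 (SE 0.12, adjusted p = 0.0119). The mammalian miR-200c probe read -0.29, -0.32 and -0.43 against 0.03, 0.10 and 0.13, and fell by 0.44 (SE 0.10, adjusted p = 0.0156). In each of the 3 the groups did not overlap, but the 3 were called by the same values, so this adds no support. After loess every blastema array was under every stump array for 18.5% of 2009 probes, called or not. Without animal 3 none of the 10 passed, and 2 passed without animal 1 or without animal 2. Of all 2015 probes 96 fell without animal 3, 188 without animal 1 and 148 without animal 2.

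The other 7 probes were also lower on average and did not pass. For the bright miR-200a probe (27777) the log2 ratio was -0.05, -0.19 and -0.29 in the blastemas and 0.00, 0.03 and 0.06 in the stumps, a difference of -0.21 (SE 0.11, adjusted p = 0.250). For the bright dre-miR-141 probe it was -0.04, -0.16 and -0.31 against -0.04, -0.01 and 0.09, a difference of -0.19 (SE 0.11, adjusted p = 0.333). Blastema and stump of animal 1 were almost level in both. For miR-200b (9578) it was -0.02, -0.17 and -0.17 against 0.06, -0.05 and 0.05, a difference of -0.14 (SE 0.11, adjusted p = 0.454), and the groups overlapped. The non-primate miR-429 probe read -0.03, -0.33 and -0.50 in the blastemas and between -0.00 and 0.02 in the stumps, a difference of -0.29 (SE 0.13, adjusted p = 0.180). The primate miR-429 probe differed by -0.29 too (SE 0.11, adjusted p = 0.108). The differences of the 10 probes ran from -0.64 to -0.14 with a median of -0.25, against a median of 0.00 over all 2015 probes. In 7 of the 10 every blastema array was under every stump array, which held for 18.5% of the 2009 probes with a value on all 6 arrays.

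**Figure D1:**
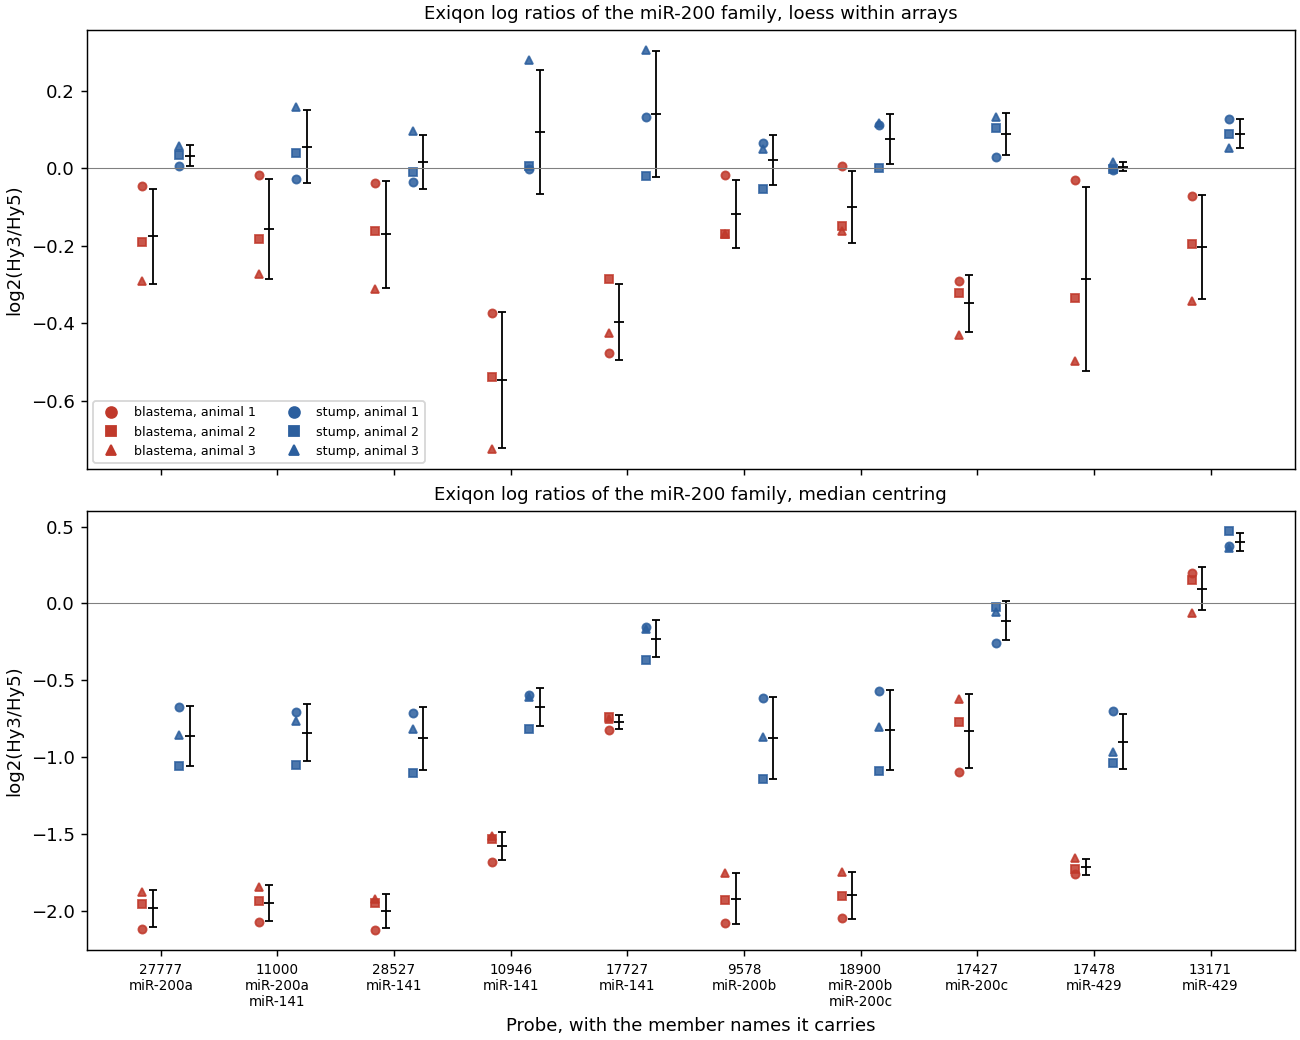
Exiqon log2 ratio of sample (Hy3) to reference pool (Hy5) for each of the 10 family probes, after loess (upper panel) and after median centring (lower panel). Points are single arrays (red blastema, blue stump, one shape per animal) and bars are the mean and SD of 3 arrays. After loess 7 probes and after median centring 10 probes have all blastemas under all stumps.

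The size of the Exiqon difference varied with the normalization, most in the bright probes. It hardly moved for 17727 (-0.53 after loess, -0.54 after median centring) and 13171 (-0.29 and -0.30). With each array's log ratios centred on their median in place of loess, 9 of 10 probes fell, against 13.0% of the 2015 probes, and the exception was the primate miR-429 probe (-0.30, SE 0.13, adjusted p = 0.172). The differences then ran from -1.12 to -0.30 with a median of -0.97, where the median of all probes was 0.03, and all 10 had every blastema under every stump (19.9% of the 2009 probes). The miR-200a probe 27777 read -2.11, -1.96 and -1.88 in the blastemas and -0.67, -1.06 and -0.85 in the stumps, and fell by 1.12 (SE 0.15, adjusted p = 0.000630). The miR-200b probe 9578 read -2.08, -1.93 and -1.75 against -0.61, -1.14 and -0.87, and fell by 1.04 (SE 0.17, adjusted p = 0.00154). The mammalian miR-200c probe, dim in both groups, fell by 0.72 (SE 0.16, adjusted p = 0.0103). In the 5 bright probes the difference was largest in animal 1, from -1.48 to -1.37, whereas after loess animal 1 had the smallest difference of the 3.

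Bright probes as a class were lower in the blastema before loess, and the family's bright probes lay with them. Among the 35 to 46 probes within 0.5 log2 units of a bright family probe's mean Hy3 intensity, the median difference was -0.25 to -0.16 after loess and -1.15 to -1.06 after median centring. The 5 bright family probes had 47.6% to 51.1% of these neighbours below them after loess and 50% to 52.2% after median centring, that is, they sat at the middle of their neighbours. The 3 dim probes called after loess had 4.35% (17727), 5.22% (17427) and 14.0% (10946) of their neighbours below them. Since they were called by the same loess differences, these low places add no support. The miR-429 probes, not called after loess, had 11.4% (13171) and 41.7% (17478) below them. The spike-in controls of Exiqon, RNAs of known sequence added at labelling, read otherwise. The 3 within 1 log2 unit of the bright family probes were higher in the blastema by 1.06 to 1.33 after loess and by 0.02 to 0.32 after median centring. With the loess curve drawn through the spike-ins alone, 8 of 10 family probes fell, as did 224 of all 2015. The means of the 5 members were then -1.21 to -0.79.

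**Figure D2:**
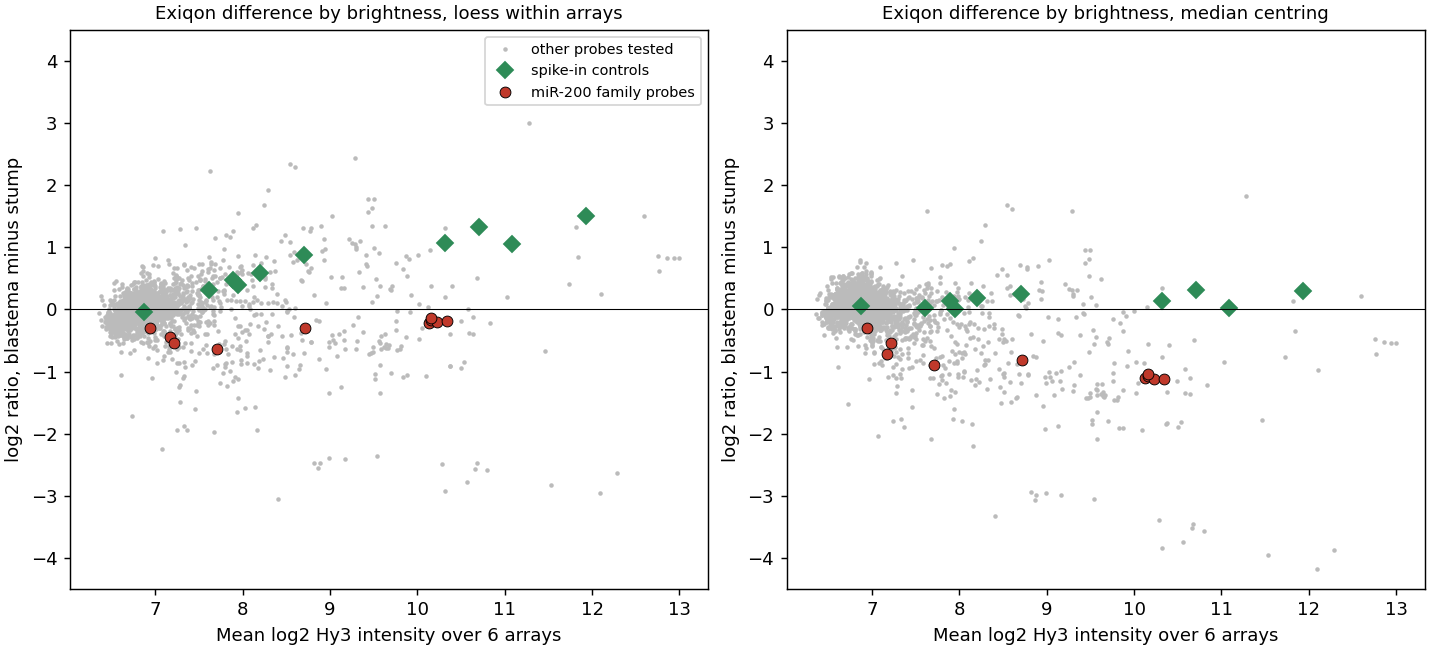
Difference of blastema minus stump (log2 ratio) against the mean log2 Hy3 intensity over 6 arrays for the 2015 Exiqon probes tested, after loess (left) and median centring (right). Red circles are the 10 family probes, green diamonds the 10 spike-in controls and grey points all other probes. The 5 bright family probes sit near -0.2 on the left and -1.1 on the right, in both panels within the grey points of the same brightness and below the spike-ins.

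When the probes of a name were averaged, which sets the dim and the bright probes of a member together, miR-141 fell by 0.39 (SE 0.11, adjusted p = 0.0245) and miR-200c by 0.31 (SE 0.09, adjusted p = 0.0415) after loess. With the animal as a block neither passed (adjusted p = 0.0577 and 0.0905), while the block left 3 of 10 single probes called. miR-200a differed by -0.21 (SE 0.10, adjusted p = 0.202), miR-200b by -0.16 (SE 0.10, adjusted p = 0.325) and miR-429 by -0.29 (SE 0.11, adjusted p = 0.105). Every one of the 5 was lower in the blastema in each of the 3 animals, and 16.0% of the 981 names tested fell. A probe that carries more than a single member name counts under each. Probe 11000 thus enters miR-200a and miR-141, and 18900 enters miR-200b and miR-200c, so the 5 means are not separate measurements. After median centring all 5 fell, with differences from -1.11 (miR-200a) to -0.56 (miR-429), as did 20.4% of the names. The mean of miR-429 includes the primate probe, which was near the brightest negative control.

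On the LC Sciences arrays 24 of the 30 reporters reached a signal of 32 in all 3 samples of a group and were tested. Both reporters for zebrafish miR-141 gave strong signal, while those for human and opossum miR-141 read 13 to 42 in the 6 samples. Both for zebrafish miR-200c read 1370 to 2113, and those for human, gorilla and opossum miR-200c 3 to 26. The 4 tested reporters for miR-429 (zebrafish, chicken and both frogs of the genus Xenopus) read 383 to 683, and that for human miR-429 read 5 to 26. These 6 mammalian reporters were not tested. The dim Exiqon probes called after loess (10946, 17727 and 17427) carry mammalian names of miR-141 and miR-200c that are among them. The human ones differ from the zebrafish reporter of the same name at the bases given above, and opossum miR-141 differs from zebrafish miR-141 by A17C alone.

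None of the 24 tested reporters passed with limma, where 48.2% of the 500 reporters tested did, and 3 had an unadjusted p under 0.05 (the 2 for dre-miR-141 and C_bta-miR-200a). The methods' t-test gave 0 at the study's threshold, against 71 higher and 72 lower of all 500. After Benjamini-Hochberg adjustment it gave 2, against 90 and 87. The differences ran from -0.29 to 0.67 with a median of 0.20, where that of all tested reporters was 0.01. In 7 every blastema was over every stump (30.0% of the 500 reporters), and in 2, both for miR-429, every blastema was under every stump (31.8% of the 500).

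The reporters of the first seed group had the larger differences. The signal of dre-miR-141 was 3074, 2357 and 1988 in the blastemas of animals 1, 2 and 3, and 1458, 1380 and 1962 in their stumps. Animals 1 and 2 were higher in the blastema by 1.08 and 0.77 on the log2 scale and animal 3 by 0.02, a mean difference of 0.62 (SE 0.26, adjusted p = 0.0852). The second reporter of the same sequence read 3493, 3028 and 2097 against 1706, 1698 and 2043, a difference of 0.64 (SE 0.26, adjusted p = 0.0781). For hsa-miR-200a the signal was 1953, 1842 and 1176 against 1290, 1084 and 1133, a difference of 0.47 (SE 0.26, adjusted p = 0.173). The 6 reporters of this miR-200a sequence differed among themselves little, from 0.40 to 0.49. C_bta-miR-200a, which has 1 more base at the 3′ end, gave 0.67 (SE 0.28, adjusted p = 0.0826). The blastema of animal 1 was labelled in Cy3, and those of animal 2, which was higher, and of animal 3, which was level, in Cy5. The part of the dye was not tested beyond the fit with dye as a covariate given below.

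The second seed group was near level. For hsa-miR-200b the signal was 2092, 2019 and 1897 in the blastemas and 2205, 2019 and 1762 in the stumps, a difference of 0.01 (SE 0.20, 95% interval -0.46 to 0.48, adjusted p = 0.965). The 4 reporters of that sequence gave 0.00 to 0.07, and the 3 that end in a further u (C_gga-, gga- and xtr-miR-200b) gave 0.22 to 0.28, each with all blastemas over all stumps. C_rno-miR-200b, which ends in a further c, gave 0.17 and C_bta-miR-200b, which is 1 base shorter, -0.02, both with overlapping groups. For dre-miR-200c the signal was 1826, 1479 and 1370 against 2113, 1782 and 1453, a difference of -0.19 (SE 0.24, adjusted p = 0.526). For dre-miR-429 it was 488, 403 and 530 against 534, 540 and 617, a difference of -0.26 (SE 0.21, adjusted p = 0.337). The study drew its candidate reference miRNAs for quantitative PCR from these arrays and, after a test of their stability by PCR in a new set of samples, used miR-200b. A small difference for it on these arrays is therefore not independent of that choice.

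**Figure D3:**
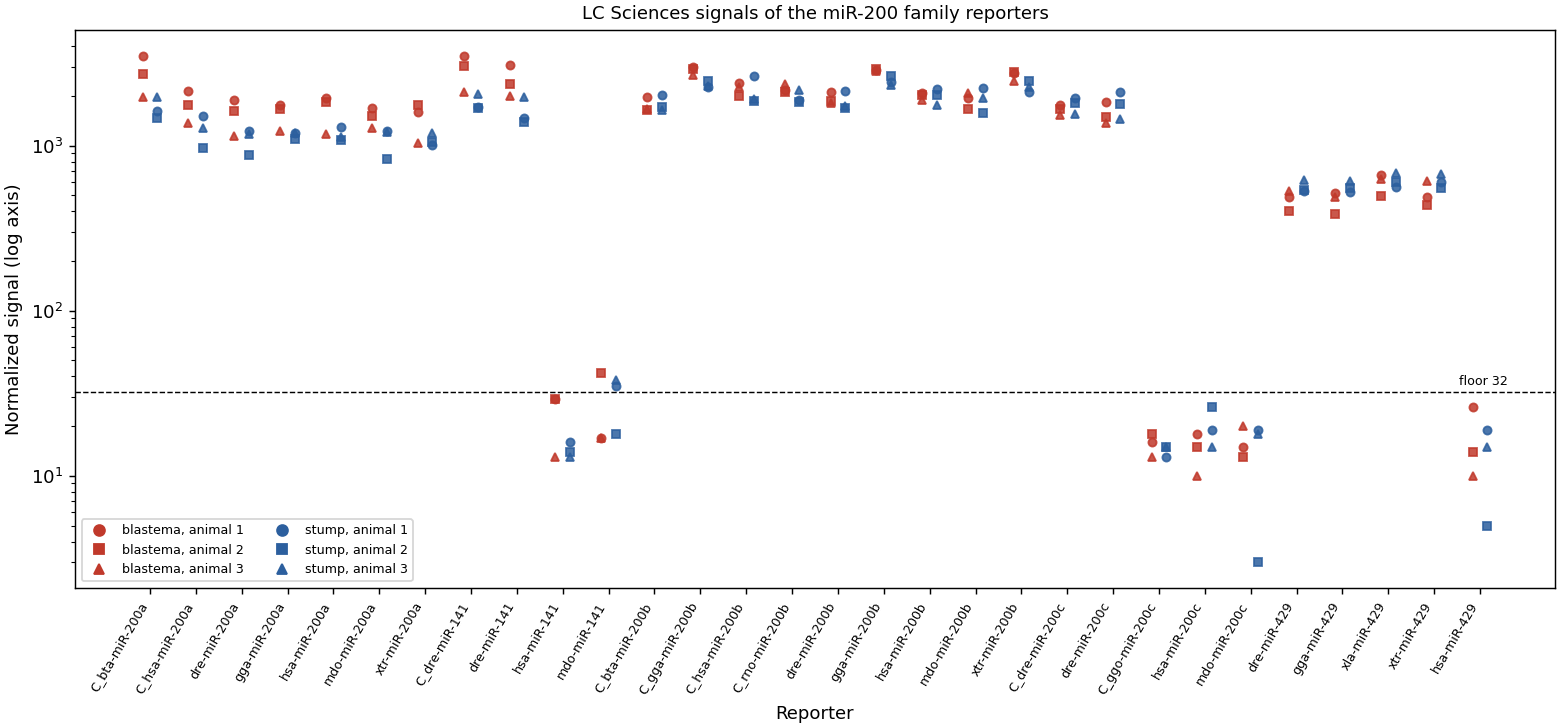
Normalized LC Sciences signal (log axis) of the 30 family reporters in the 6 samples, red for blastema and blue for stump, with one shape per animal. The dashed line is the floor of 32. The 6 mammalian reporters of miR-141, miR-200c and miR-429 lie around or under it, and the blastemas of animals 1 and 2 stand over the stumps for miR-200a and dre-miR-141.

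Averaged by name, miR-141 was higher in the blastema by 0.63 (SE 0.25, 95% interval 0.05 to 1.21, adjusted p = 0.0612) and miR-200a by 0.49 (SE 0.24, -0.08 to 1.05, adjusted p = 0.116). By animal, miR-141 differed by 1.05, 0.80 and 0.03 and miR-200a by 0.65, 0.80 and 0.00. Without animal 3, in which it was level, miR-141 passed (0.93, adjusted p = 0.0289). With the dye as a covariate it passed too (0.74, adjusted p = 0.0431). After cyclic loess of the 6 samples both miR-141 and miR-200a passed (0.74, adjusted p = 0.0297, and 0.67, adjusted p = 0.0346). miR-141 did not pass with median centring (adjusted p = 0.103), with the animal as a block (0.108), without animal 1 (0.242) or without animal 2 (0.270). The share of all names that rose was 32.1% in the main fit and was not counted under these settings. miR-200b differed by 0.11 (-0.31 to 0.54), miR-200c by -0.14 (-0.63 to 0.35) and miR-429 by -0.22 (-0.70 to 0.26), with 95% intervals in parentheses.

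On LC Sciences the direction of some members changed with the scaling. With median centring miR-200a and miR-141 stayed higher in the blastema (0.42 and 0.57), as they did after cyclic loess. Centring on spike-ins turned both lower. The company's spike-in control reporters that were above the floor in all 6 samples read 2.83-fold to 8.66-fold higher in the blastema in the deposited signals. Centred on these, all 24 family reporters fell, with differences from -2.95 to -1.99, as did 402 of all 500. The means by name then ran from -2.88 (miR-429) to -2.03 (miR-141). In the spot values of the array of animal 1 before the company's normalization, all 24 were lower in the blastema, from -1.74 (C_hsa-miR-200b) to -0.36 (C_bta-miR-200a), and the median of the kept reporters was -0.82. A background was first subtracted from these spot values, the median of the 1290 reporters under the floor in all 6 samples. It was 309.5 for the blastema, in Cy3, and 44.1 for the stump, in Cy5. Relative to the median of the kept reporters the mean of miR-141 was at 0.39, miR-200a at 0.04, miR-200b at -0.65, miR-200c at -0.84 and miR-429 at -0.32. Both members of the first seed group were above the 3 of the second. This is the array that gave the animal 1 signals above, so it is not a further observation. Centring on the median shifts all reporters alike and cannot change their order. The signals of dre-miR-141 and miR-200a cannot be told apart.

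Base composition moved with the LC Sciences difference. The median difference of the tested reporters was -0.44 where the target had under 40% G and C, -0.34 from 40% to 45%, -0.07 from 45% to 50%, 0.23 from 50% to 55% and 0.53 above. The tested family targets held 34.8% to 45.5% G and C. Each of the 24 lay above the median of the reporters within 2 points of its own content, which was -0.76 to -0.37. The part of base composition in the family's values was not tested.

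The seed groups were set against each other within each sample, as the mean of the miR-200a and miR-141 probes minus that of the miR-200b, miR-200c and miR-429 probes, since a shift common to all probes of a sample cancels in it. On LC Sciences this balance was 0.56, 0.55 and -0.02 in the blastemas of animals 1, 2 and 3 and -0.17, -0.31 and -0.00 in their stumps. It was higher in the blastema in animals 1 and 2 and level in animal 3, with a mean change of 0.53. On Exiqon after loess it was -0.11, -0.04 and -0.09 against -0.05, -0.02 and 0.11, a change of -0.09, lower in the blastema in each animal but with overlapping groups. After median centring it was -0.41, -0.38 and -0.41 against -0.22, -0.31 and -0.17, a change of -0.17 with every blastema below every stump. The mean change of this balance had opposite signs on the platforms for the same RNA. In animal 3 the change was -0.02 on LC Sciences and -0.19 on Exiqon after loess. The mean on Exiqon includes the dim probes with mammalian names. The Exiqon difference moved with the normalization most in the bright probes, so a shift of that kind need not cancel in the balance. No test was made of the balance, and overlap was not counted for other groups of probes.

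**Figure D4:**
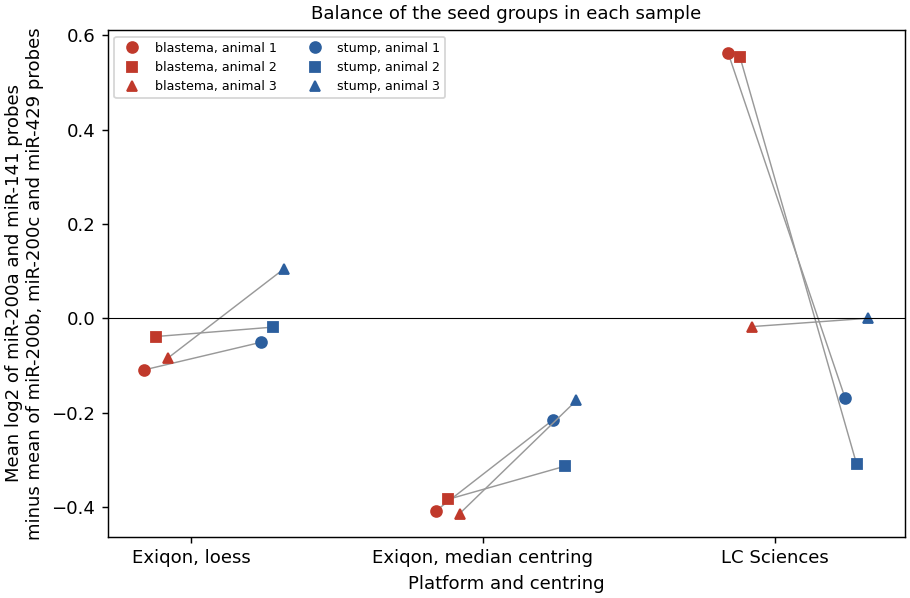
Mean log2 value of the miR-200a and miR-141 probes minus that of the miR-200b, miR-200c and miR-429 probes in each sample, with lines joining the blastema (red) and stump (blue) of an animal. On LC Sciences animals 1 and 2 stand 0.73 and 0.86 higher in the blastema and animal 3 is level, while on Exiqon the blastema is the lower sample of each animal.

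**Figure D5:**
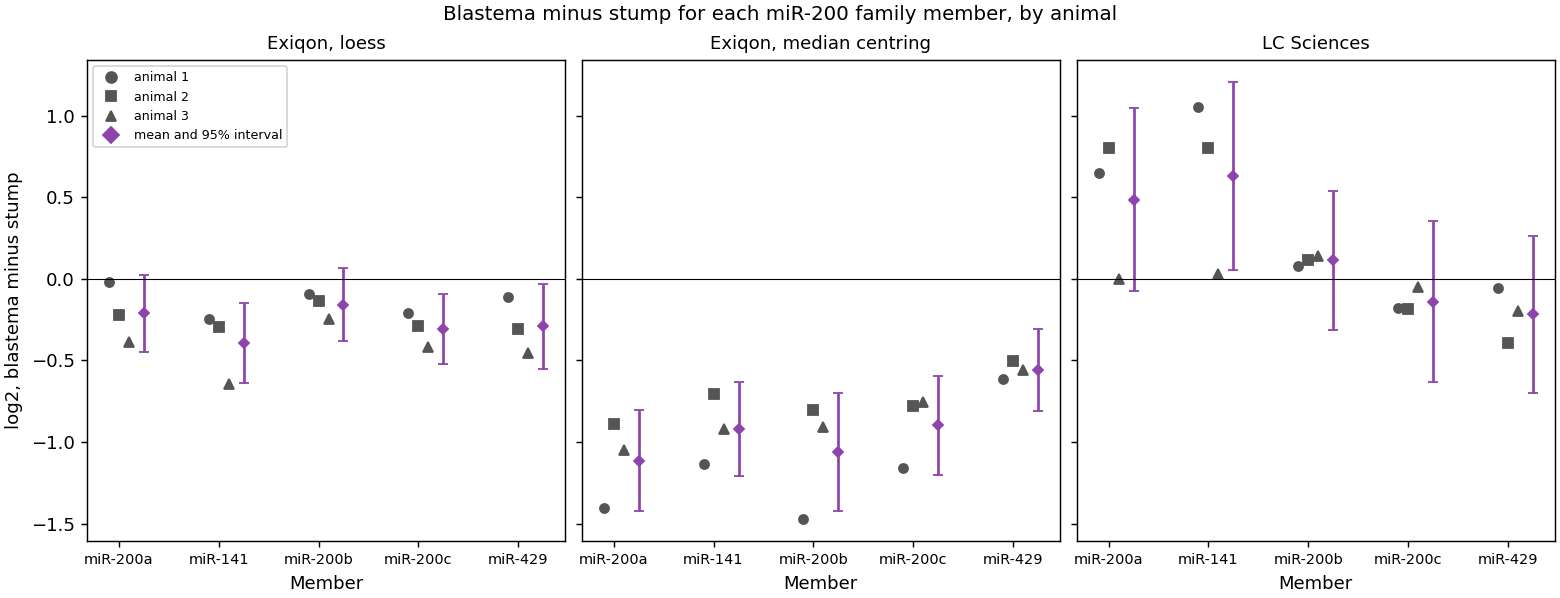
Blastema minus stump (log2) for each member in each animal (grey shapes), with the mean and its 95% interval from limma (purple), on Exiqon after loess, on Exiqon after median centring and on LC Sciences. The 5 members are below 0 in every animal on Exiqon and on both sides of 0 on LC Sciences. On Exiqon the means of some members share a probe.

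The star strands are the opposite arms of the same hairpins and are usually degraded. On Exiqon after loess, the miR-200b* probe read 0.09, 0.13 and 0.15 in the blastemas and -0.33, -0.19 and -0.37 in the stumps, and rose by 0.42 (SE 0.11, adjusted p = 0.0200), at a Hy3 intensity of 131 to 158. After median centring its difference was 0.11 (SE 0.14, adjusted p = 0.656), and the groups overlapped. The miR-141* probe, at 131 to 139, differed by 0.33 after loess (SE 0.11, adjusted p = 0.0690) and rose by 0.49 after median centring (SE 0.14, adjusted p = 0.0387). The other 3 differed by -0.05 to 0.09 after loess. Of 5 star reporters on LC Sciences only hsa-miR-200b* was tested, at signals of 28 to 46 and a difference of 0.06 (SE 0.24). Invertebrate relatives of the family gave 1 bright probe on Exiqon, for planarian miR-8 (sme-miR-8). It read 257 to 351 in the blastemas and 452 to 695 in the stumps, and fell by 0.70 after loess (SE 0.11, adjusted p = 0.00200). The probe for fly miR-8 read 94.3 to 98.6 and that for worm miR-236 122 to 147, and neither passed (adjusted p = 0.959 and 0.689).

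The other miRNAs of epidermis, miR-203, which drives keratinocytes out of the cell cycle in mammals, and miR-205, which is abundant in basal keratinocytes, were read beside the family. On Exiqon after loess miR-203 fell by 0.41 (SE 0.11, adjusted p = 0.0193), while miR-205 differed by -0.24 (SE 0.10, adjusted p = 0.133). After median centring both fell, miR-203 by 1.32 (SE 0.15, adjusted p = 0.000366) and miR-205 by 1.15 (SE 0.17, adjusted p = 0.000869). On LC Sciences miR-205 rose by 1.86 (SE 0.20, adjusted p = 0.000247), or 3.64-fold, with the signal of hsa-miR-205 at 4078, 5009 and 4145 in the blastemas and 1230, 1135 and 1308 in the stumps. miR-203 differed there by 0.13 (SE 0.22, adjusted p = 0.614). Counting also the names miR-203a, miR-203b, miR-205a and miR-205b, 3 of 6 fell on Exiqon after loess, the 3 of miR-203, where 16.0% of the 981 names tested fell, and 6 of 6 fell after median centring, where 20.4% did. The 6 names are not separate measurements on Exiqon. There miR-205 and miR-205a rest on the same single probe, and miR-203 and miR-203a share a probe. On LC Sciences 3 of 6 rose, the 3 of miR-205, where 32.1% of the 168 names tested rose.

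Among the tissue markers the 4 miRNAs of skeletal muscle (miR-1, miR-133a, miR-206 and miR-499) fell on Exiqon under both settings. Their differences were -2.74 to -2.22 after loess, where 16.0% of the 981 names fell. They were -3.62 to -2.53 after median centring, where 20.4% did. On LC Sciences 3 of the 4 fell, all but miR-133a (-1.57, SE 0.73, adjusted p = 0.103). Of the 500 single reporters there 22.4% fell. miR-223 of myeloid cells rose by 1.57 on Exiqon after loess (SE 0.23, adjusted p = 0.00104) and by 1.94 on LC Sciences (SE 0.54, adjusted p = 0.0172), but differed by 0.75 on Exiqon after median centring (SE 0.25, adjusted p = 0.0661). Of the cartilage miRNAs miR-455 fell on both platforms (-1.23, SE 0.17, and -2.07, SE 0.35). miR-140 fell on Exiqon after loess (-2.03) and was not tested on LC Sciences. miR-126 of the vessel wall fell on both (-0.89 and -1.52). miR-199a and miR-214 of connective tissue fell on Exiqon after loess (-0.53 and -0.50) and after median centring (-1.36 and -1.09). On LC Sciences they differed by 0.95 and 0.27, and neither passed. miR-451 of red blood cells rose on LC Sciences (2.01) and did not pass on Exiqon (0.45 after loess, 0.01 after median centring). The nerve names miR-9 and miR-124 did not pass on Exiqon and were not tested on LC Sciences. The part of a different tissue makeup in the family's values was not tested.

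By the correlation of the 6 sample values, a description over 6 samples with no test, the names most like the first seed group on Exiqon after loess were miR-10, miR-10a-5p and miR-148b (r from 0.995 to 0.996), and most like the second miR-10d, miR-25 and miR-301b (0.987 to 0.995). On LC Sciences those most like the first were miR-199, miR-22 and miR-199a-5p (0.950 to 0.985), and most like the second miR-122, miR-148a and miR-214 (0.620 to 0.729). No name was among the 3 of a group on both platforms.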

How the data were processed

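RNA of 3 blastema and 3 stump samples was measured on both platforms, grouped by the labels. The Exiqon scanner files were deposited as spot intensity in each channel, uncorrected by the authors. The Exiqon ratios were deposited as log2 values (Hy3 to Hy5) that the company had already put through normexp and loess. LC Sciences values were deposited as intensity after normalization by the company, which the methods call Lowess and array headers call global, so that the method is not settled here. Comparison columns of the authors (p-values, a log2 ratio of group means) were not used.

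Exiqon ratios were recomputed in limma 3.58.1 (R 4.3.3) with normexp (offset 10) and loess without control spots. Flagged spots were dropped and the rest of the 4 per probe averaged. A probe was kept with 50% of its spots over local background by 2 SD on all arrays of a group, and 206 nameless IDs were not used. On LC Sciences a floor of 32 was put under the signals, a reporter had to reach it in all samples of a group, and 12 control reporters were not used. Differences are blastema minus stump from lmFit and eBayes without pairing, two-sided, with Benjamini-Hochberg over all probes kept and a threshold of 0.05. Means by name were fitted likewise. With 3 against 3 samples an exact permutation test cannot go below 0.1 and was not used.

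Same-numbered samples come from the same animal, so the numbers pair the samples by design. Deviations of the pairs correlated by -0.033 to 0.002 on Exiqon and -0.047 to 0.167 on LC Sciences. All 5 members and all their probes are reported, and the star strands, invertebrate relatives, other epidermal miRNAs, tissue markers and the 3 names most correlated with each seed group are set beside them. The members, lists and tests were chosen with earlier results of these data known. Sequences are the target sequences printed in the LC Sciences spot table. The fits were tested on simulated data. Figures were drawn with matplotlib.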

Additional observations from a re-analysis of the deposited data

How the results depend on the processing

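On Exiqon the 3 calls among 10 probes became 9 with median centring, 8 with loess on spike-ins and 1 of 7 with the deposited ratios. They became 0 with the methods' t-test at the study's threshold and 1 with it after Benjamini-Hochberg. Of the 3 family probes with too few deposited values to test, 17427 and 17727 had been called after loess and 13171 had not. The 2 calls among 5 member means became 5, 5, 1, 0 and 1 under the same settings in that order. They became 1 with a normexp offset of 50, with no background correction, with Hy3 alone and with flagged spots kept. Of all names, 16.0% fell on Exiqon after loess and 20.4% after median centring, and 32.1% rose on LC Sciences. The share of names was not counted under the other settings. Without background correction miR-200b turned to 0.026, and 7 of 10 probes were lower in the blastema. The others were 9578 (0.047), 28527 (0.020) and 18900 (0.005), all of them bright. With the replicate block, that is, pairing by animal, 0 of 5 means and 3 of 10 probes passed, and on LC Sciences the block changed no call. Leaving out a replicate gave 0 to 2 probes and 0 to 1 means on Exiqon, and 0 to 2 and 0 to 1 on LC Sciences. On LC Sciences cyclic loess gave 5 reporters and 2 means (miR-200c turned to 0.054), centring on spike-ins 24 and 5 (miR-200a -2.18, miR-200b -2.55, miR-141 -2.03), the dye as a covariate 1 mean, and the t-test with Benjamini-Hochberg 2 reporters. In the spot values of the array of replicate 1 before normalization miR-200a was at -0.77, miR-200b at -1.47 and miR-141 at -0.43, and miR-200b at -0.65 after centring, a setting chosen after seeing the data. The seed group balance was -0.17 on Exiqon with median centring, and leaving out a replicate gave -0.12 to -0.04 there after loess and 0.36 to 0.80 on LC Sciences. The causes were not tested.

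Over all probes, calls higher and lower in the blastema were 189 and 217 of 2015 on Exiqon after loess, 57 and 262 with median centring and 26 and 224 with loess on spike-ins. They were 150 and 179 with the replicate block and 145 and 155 of 403 with the deposited ratios. A normexp offset of 50 gave 219 and 230, and no background correction 213 and 221. Hy3 alone gave 183 and 189, and flagged spots kept 179 and 213. The methods' t-test at the study's threshold gave 51 and 33 of 2009, and 156 and 153 after Benjamini-Hochberg. Leaving out replicate 1, 2 or 3 gave 174 and 188, 110 and 148, and 83 and 96. On LC Sciences they were 129 and 112 of 500, 128 and 123 after cyclic loess, and 2 and 402 after centring on spike-ins. With the dye as a covariate they were 122 and 129, and with the replicate block 123 and 108. Leaving out replicate 1, 2 or 3 gave 100 and 95, 62 and 43, and 110 and 82 there. The brightest negative control, at 116 to 128, limits the dim Exiqon probes, and the floor limits 6 of 30 LC Sciences reporters. With the filter on negative controls 3 of 9 family probes fell, as did 224 of the 972 probes kept. Without a filter 3 of 10 fell, as did 217 of 2021. On LC Sciences the floor of 64 and median centring left the count at 0 of 24. Over all reporters, calls higher and lower were then 115 and 109 of 459, and 113 and 117 of 500.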
